A study of Mus musculus with 10 samples.

Results

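The mitochondrial ribosomal proteins of mouse quadriceps muscle were taken as all gene symbols in the deposited tables that begin with Mrpl or Mrps followed by digits, without pseudogenes. This gave 77 symbols of 24063, and each was represented by the identifier with the largest summed count (91 identifiers carry these symbols). RNA was sequenced from 5 mice whose drinking water carried a supplement called 1C-MIM and from 5 Control mice that drank the facility's water. All 10 were wild-type (WT) C57BL mice, 17 to 20 months old, and supplementation lasted 1 to 3 months. Mice of both groups had an injury to a tibialis anterior muscle, while the RNA is from uninjured quadriceps. The sources used here give neither the composition of 1C-MIM nor the time from injury to collection. The libraries are numbered as separate animals, so n counts animals and the tests measure the spread between them. Water was given by the cage, with at most 5 mice in each. Which animals shared a cage is not given here, so an effect of cage cannot be told apart from that of the supplement.

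Mitochondrial ribosomes translate the few messenger RNAs of mitochondrial DNA, which encode core subunits of the respiratory chain and of ATP synthase. Their RNA comes from mitochondrial DNA, but all of their proteins come from nuclear genes and are imported. Some of these proteins have counterparts in bacterial ribosomes and others occur only in mitochondria. Muscle needs the products of this translation for oxidative ATP production. In the data, 23 of the 77 genes (29.9%) were lower with 1C-MIM and 0 were higher, and the changes were small. Of all tested genes, 11.8% were lower and 9.78% higher. The 2 shortest deciles of transcript length over all tested genes held 58 of the 77 members and 21 of the 23 lower ones. With each library's trend over transcript length removed, 8 members (10.4%) were lower, where 9.31% of all tested genes were.

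Library totals over the kept identifiers, 1 per symbol, were 28521254 to 31771296 counts, and the family took 0.320, 0.272, 0.275, 0.288 and 0.302% of them in 1C-MIM libraries 1 to 5, against 0.346, 0.337, 0.336, 0.350 and 0.375% in Control libraries 1 to 5. Each family member had 2209 (Mrps33) to 52514 (Mrpl42) reads over the 10 libraries, with a median of 10497. The muscle fibre genes Ckm, Acta1, Myh4 and Tnnt3 together held 152300 to 173500 counts per 1000000 (CPM) in 1C-MIM and 141100 to 161700 CPM in Control libraries, from genes that define the labelled tissue. Macrophage genes moved with the groups: Ctss, Cd68 and Lyz2, 3 of 3 on the list, summed to 59.8 to 78.7 CPM in 1C-MIM and 125.6 to 227.7 CPM in Control, none of them at 0. Neural genes (Snap25, Tubb2b, Nefl, 3 of 3 on the list) summed to 0.725 to 1.30 CPM in 1C-MIM and 1.53 to 18.0 CPM in Control. Most of this sum was Tubb2b, which averaged 0.995 CPM in 1C-MIM and 4.85 CPM in Control. Snap25 (means of 0.00664 and 0.211 CPM) and Nefl (0.0271 and 0.252 CPM) reached 0 in both groups and were not tested. The 18.0 CPM came from Control 1, the library that stands apart for these genes. The part of these other cells in the differences described below was not tested, and in whole muscle fewer cells of a type cannot be told apart from less RNA per cell.

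All 77 members passed the filter on low counts and were tested among 13880 genes with edgeR's quasi-likelihood test, with Benjamini-Hochberg adjustment over all of these and a threshold of 0.05. The 23 members below the threshold, all lower in 1C-MIM, are 29.9% of the family, where 11.8% of all tested genes were lower and 9.78% higher. At an unadjusted edgeR p under 0.05, 47 members were lower and 0 higher, where 2722 of the 13880 tested genes were lower and 2482 higher. With DESeq2 31 members were lower, all 23 among them, where 13% of all genes were lower and 12.9% higher, and with limma-voom 24 were lower; both tools again gave 0 higher members. The median log2 fold change of the family (1C-MIM over Control) was -0.19, against 0.00 over all tested genes, and it lay between -0.26 and -0.18 under the other scalings of the libraries. Single members ranged between -0.46 (Mrpl14) and 0.04 (Mrpl3), and 73 of 77 were below 0. These differences were small but finely resolved, since the standard error was at most 0.1 for 74 members. In 13 members (16.9%) all 5 1C-MIM libraries lay below all 5 Control libraries, as they did in 7.98% of all tested genes. In 0 members they lay above (6.6% of all tested genes). Of these 13, 12 are among the 23 lower members, and the other is Mrps6.

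**Figure D1:**
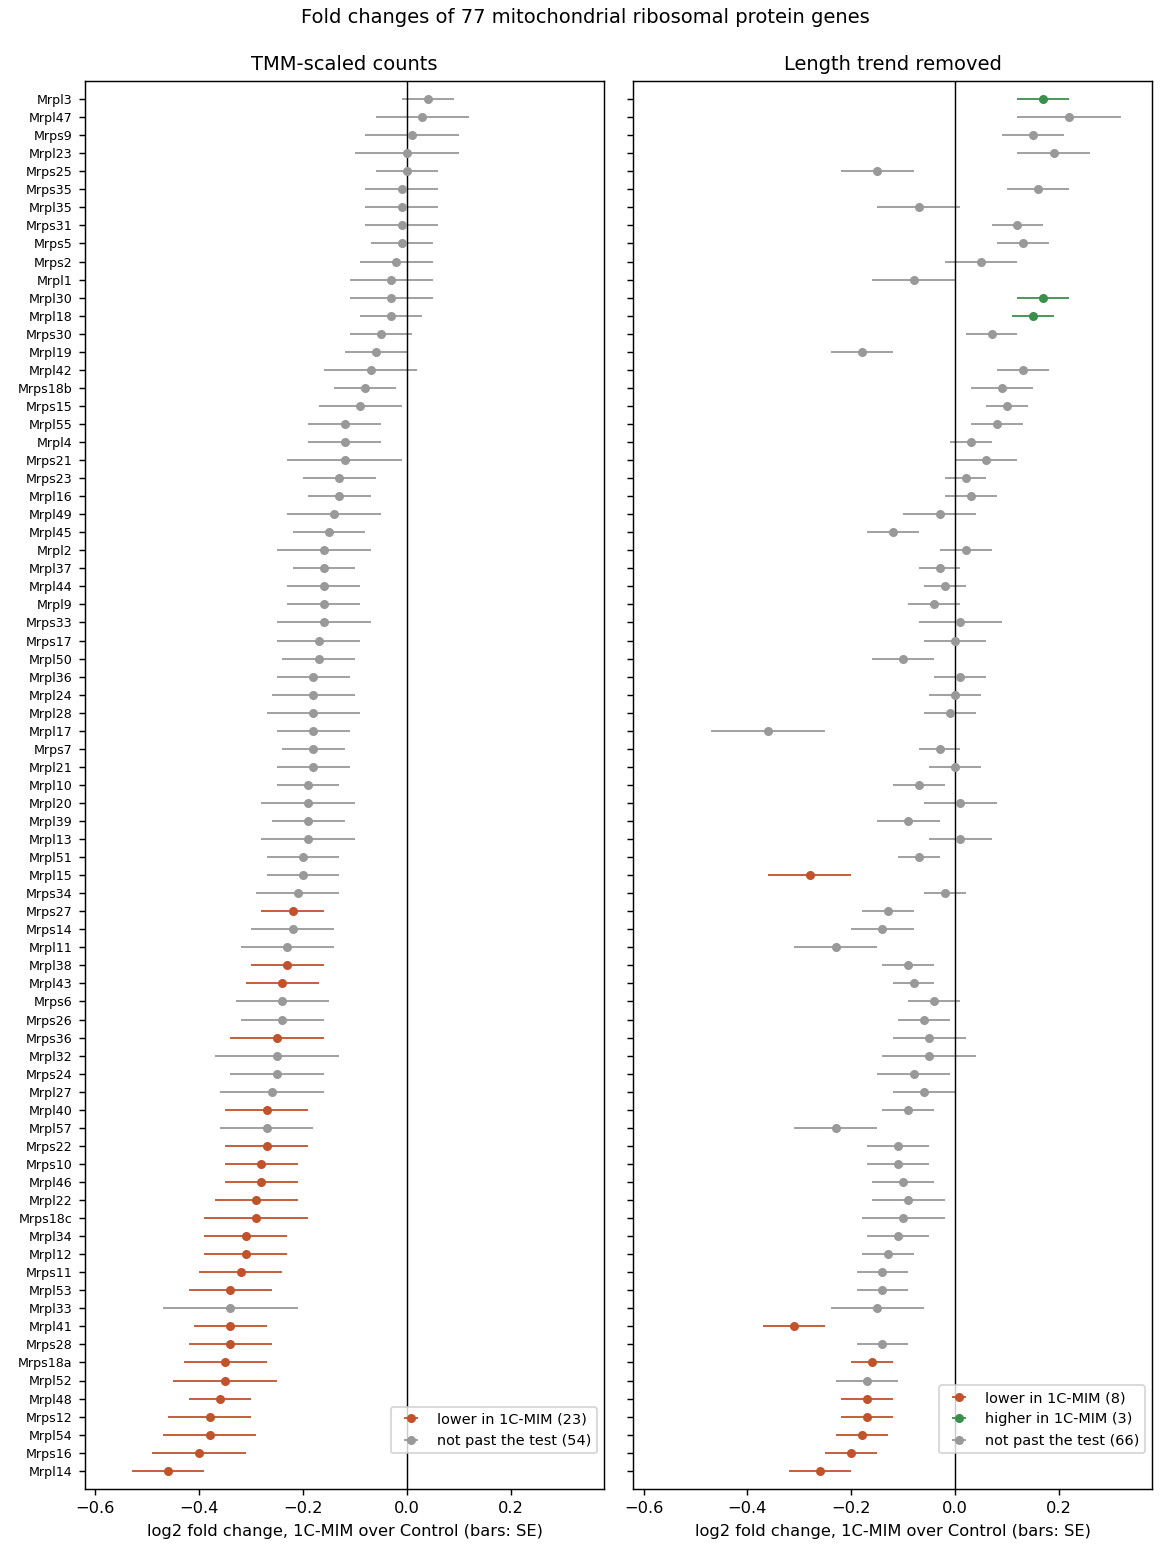
Log2 fold change of each of the 77 genes (1C-MIM over Control, bars are standard errors), coloured by the call at an edgeR adjusted p under 0.05, from scaled counts on the left and with each library's length trend removed on the right. On the left the values run between -0.46 for Mrpl14 and 0.04 for Mrpl3 and the 23 coloured genes are all below 0; on the right 8 are lower and 3 higher.

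The number of lower members depended on single libraries. It was 46 without 1C-MIM 1, and 15, 13 and 12 without 1C-MIM 2, 3 and 4, and 15 without Control 5. Without Control 1 and Control 5 together it was 11. Counts over all genes in these fits are not set beside these numbers, so a change in the family cannot be told apart from a change in calls across all genes. The 12 members that were lower in each of the 10 fits without 1 library were Mrpl14, Mrpl34, Mrpl41, Mrpl48, Mrpl53, Mrpl54, Mrps10, Mrps11, Mrps12, Mrps16, Mrps18a and Mrps28.

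In the large subunit 14 of 50 members were lower, with a median log2 fold change of -0.18 (0 higher). Mrpl14, a protein of the face that meets the small subunit and the docking site of the assembly factor Malsu1, had the smallest p of the family. It had 44.1, 36.4, 36.1, 33.7 and 35.1 CPM in 1C-MIM libraries 1 to 5, against 47.0, 50.7, 50.4, 51.2 and 55.8 CPM in Control libraries 1 to 5. The groups did not overlap, and 1C-MIM 1 was the highest library of its group by a wide margin. The means were 37.1 ± 4.07 CPM in 1C-MIM and 51.0 ± 3.15 CPM in Control (SD, n = 5 each), a log2 fold change of -0.46 (SE 0.07, adjusted p = 0.00181 in edgeR). Its exons overlap those of Tmem63b on the other strand, whose log2 fold change was -0.11 (SE 0.05, adjusted p = 0.142 in edgeR); the sources used here do not say whether counting used the strand, so reads of such pairs cannot be told apart.

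Mrpl48, a protein of the central protuberance, had 38.9, 36.3, 36.8, 34.1 and 38.5 CPM in 1C-MIM libraries 1 to 5 and 51.4, 44.6, 44.3, 46.7 and 49.4 CPM in Control libraries 1 to 5. The groups were well apart, with the highest 1C-MIM library below the lowest Control library. The log2 fold change was -0.36 (SE 0.06, adjusted p = 0.00228 in edgeR). Rab6a, whose exons overlap those of Mrpl48 on the other strand, had a log2 fold change of 0.06 (adjusted p = 0.563 in edgeR). Mrpl38, Mrpl40 and Mrpl46 fell by 0.23, 0.27 and 0.28 on the log2 scale (edgeR adjusted p = 0.0405, 0.0355 and 0.0189), and in all of these the groups overlapped. With the trend over transcript length removed, as described below, they had log2 fold changes of -0.09, -0.09 and -0.10 and did not pass.

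Mrpl41, a mitochondria-specific protein, had 16.6, 13.9, 15.1, 14.0 and 16.3 CPM in 1C-MIM libraries 1 to 5 and 19.3, 18.9, 18.6, 18.0 and 21.4 CPM in Control libraries 1 to 5. No 1C-MIM library reached the lowest Control library. The log2 fold change was -0.34 (SE 0.07, adjusted p = 0.0077 in edgeR). With 2423 bases its transcript is the longest among the 23 lower members. Mrpl54, a small mitochondria-specific protein, had 51.5, 37.6, 41.5, 38.9 and 46.3 CPM in 1C-MIM libraries 1 to 5 and 56.0, 52.1, 54.7, 54.1 and 63.5 CPM in Control libraries 1 to 5. Its groups did not overlap either, though 1C-MIM 1 came within 1 CPM of the lowest Control library. The log2 fold change was -0.38 (SE 0.09, adjusted p = 0.00971 in edgeR).

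Mrps18a carries a small-subunit name but sits in the large subunit, like Mrps30. Mrps18a had 51.2, 41.5, 41.1, 41.1 and 47.0 CPM in 1C-MIM libraries 1 to 5 and 55.8, 51.8, 54.6, 56.9 and 64.1 CPM in Control libraries 1 to 5. The groups did not overlap, and the log2 fold change was -0.35 (SE 0.08, adjusted p = 0.00809 in edgeR). Mrps30 did not pass the test, with a log2 fold change of -0.05 (SE 0.06, adjusted p = 0.619 in edgeR). Mrpl53, another mitochondria-specific protein, averaged 46.7 ± 5.09 CPM in 1C-MIM and 59.1 ± 5.58 CPM in Control (log2 fold change -0.34, SE 0.08, adjusted p = 0.0131 in edgeR), and 1C-MIM 1 with 54.5 CPM reached into the Control range of 53.5 to 66.0 CPM. Mrpl12, the stalk protein that recruits translation factors, averaged 101 ± 12.5 CPM in 1C-MIM and 126 ± 7.85 CPM in Control (log2 fold change -0.31, SE 0.08, adjusted p = 0.0158 in edgeR). Its highest 1C-MIM library, with 120 CPM, was above its lowest Control library, with 116 CPM. The other lower genes of the large subunit were Mrpl22, Mrpl34, Mrpl43 and Mrpl52, with log2 fold changes of -0.29, -0.31, -0.24 and -0.35.

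In the small subunit 8 of 26 members were lower, with a median log2 fold change of -0.19 (0 higher). Mrps16, whose loss causes mitochondrial disease in humans, had 34.9, 27.6, 26.0, 27.2 and 30.9 CPM in 1C-MIM libraries 1 to 5 and 38.4, 36.3, 35.9, 37.8 and 44.8 CPM in Control libraries 1 to 5. The groups did not overlap. The log2 fold change was -0.40 (SE 0.09, adjusted p = 0.00781 in edgeR). Mrps12, a protein of the decoding centre, had 28.4, 23.8, 26.7, 25.0 and 29.3 CPM in 1C-MIM libraries 1 to 5 and 31.8, 33.3, 32.6, 33.6 and 41.8 CPM in Control libraries 1 to 5. The groups were again apart, and Control 5 stood above the other Controls. The log2 fold change was -0.38 (SE 0.08, adjusted p = 0.00855 in edgeR).

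Mrps28 had 58.1, 44.6, 44.2, 48.6 and 50.6 CPM in 1C-MIM libraries 1 to 5 and 58.7, 60.0, 58.6, 63.7 and 69.8 CPM in Control libraries 1 to 5. Mrps10 had 22.0, 18.6, 18.6, 20.0 and 20.1 CPM in 1C-MIM libraries 1 to 5 and 22.5, 25.2, 22.5, 25.3 and 24.9 CPM in Control libraries 1 to 5. In both genes the groups were separated only narrowly, by 1C-MIM 1. Their log2 fold changes were -0.34 (SE 0.08) and -0.28 (SE 0.07), with edgeR adjusted p = 0.0115 for Mrps28 and 0.0121 for Mrps10. Mrps11 fell by 0.32 on the log2 scale (SE 0.08, adjusted p = 0.0131 in edgeR); its exons overlap those of Mrpl46 on the other strand, so these 2 lower members may share reads. Mrps22, another human mitochondrial disease gene, Mrps27, an RNA-binding pentatricopeptide repeat protein, and Mrps18c fell by 0.27, 0.22 and 0.29 (edgeR adjusted p = 0.0259, 0.0262 and 0.0431), each with overlapping groups. Mrps36, also known as a component of the 2-oxoglutarate dehydrogenase complex and therefore put in neither subunit, was just past the threshold (log2 fold change -0.25, SE 0.09, adjusted p = 0.0494 in edgeR). Just outside it lay Mrpl10 (edgeR adjusted p = 0.0518, log2 fold change -0.19).

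**Figure D2:**
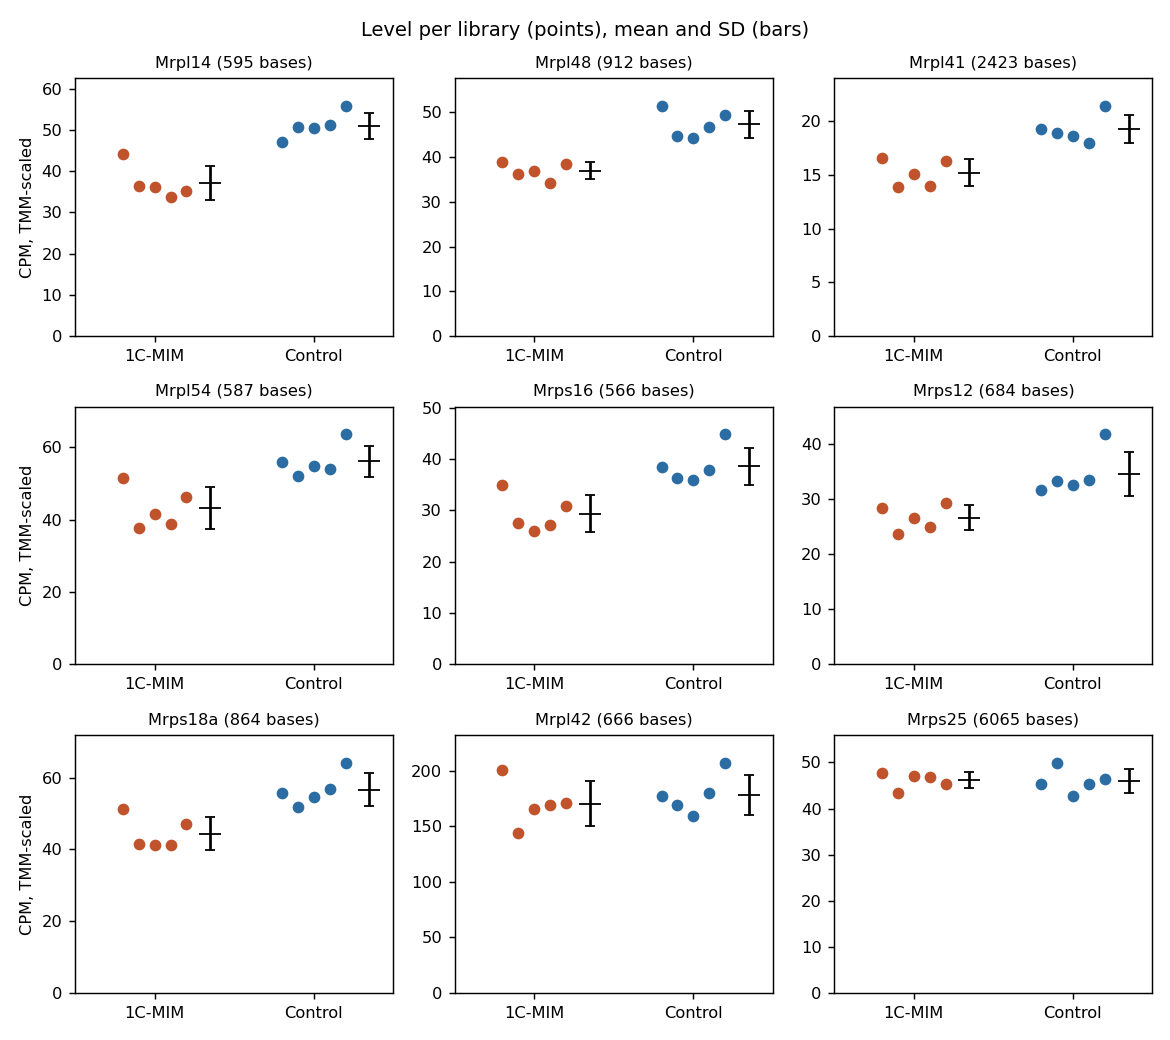
CPM in each library (points) of 9 members, 1C-MIM on the left of each panel and Control on the right, with the group mean and SD. In Mrpl14, Mrpl48, Mrpl41, Mrpl54, Mrps16, Mrps12 and Mrps18a every 1C-MIM library lies below every Control library, while in Mrpl42 and the long Mrps25 the groups overlap.

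By origin, 10 of 45 members with a bacterial counterpart were lower (median log2 fold change -0.18), and 12 of 30 members that occur only in mitochondria (median -0.20); 0 of either were higher. The difference between these counts was not tested. Both subunits moved by like amounts. The summed level of the large subunit was 2116 ± 187 CPM in 1C-MIM and 2409 ± 159 CPM in Control, a difference of -12.2%, and that of the small subunit was 867.8 ± 75.4 CPM in 1C-MIM and 980.8 ± 65.3 CPM in Control, a difference of -11.5% (SD, n = 5 each). The ratio of the large to the small sum was 2.40 to 2.46 in 1C-MIM and 2.43 to 2.50 in Control.

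The 77 members largely moved together from library to library. Their sum was 3408, 2719, 2897, 2878 and 3073 CPM in 1C-MIM libraries 1 to 5 and 3378, 3310, 3174, 3379 and 3776 CPM in Control libraries 1 to 5. The groups overlap in this sum only through 1C-MIM 1, which was as high as most Controls. In that library 69 of 77 members were above their own mean over all libraries, while 2, 4, 9 and 17 were in 1C-MIM 2 to 5. In the Controls the numbers were 64, 62, 36, 67 and 73. The sum of the authors' TPM, which divides by transcript length, was 2852 to 3137 in 1C-MIM and 3296 to 3446 in Control, with no overlap. The animal numbers in the deposited names fall into a lower and a higher series; the labels do not say what these mean. In the lower series (3 animals of each group) the median difference of the family was -0.14 with 68 members below 0, and in the higher series (2 animals of each group) it was -0.29 with 71 members below 0.

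**Figure D3:**
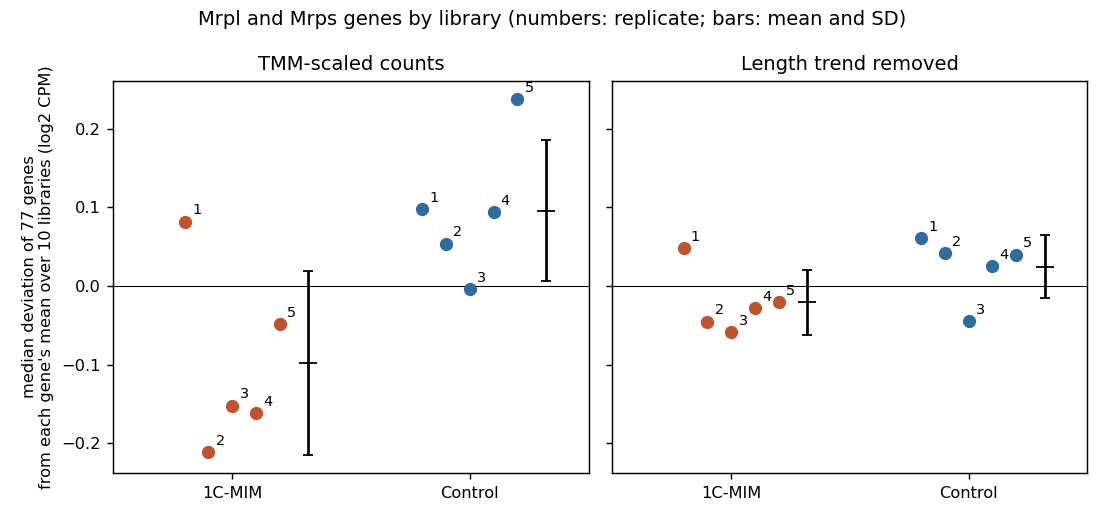
Median deviation of the 77 members from their own mean log2 CPM in each library, before and after the trend with transcript length was removed, 1C-MIM libraries to the left of Control libraries. Before removal the medians run between -0.211 (1C-MIM 2) and 0.238 (Control 5), and after it between -0.058 and 0.061.

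The correlation (Pearson's r over the 10 libraries, log2 CPM) of a member with the mean of the other members had a median of 0.90 and was over 0.8 for 58 members. It describes these libraries only, which share the group difference and the depth. The correlation was taken without removing each library's trend with transcript length, which is described below. The correlation was highest for Mrpl11, Mrpl44 and Mrpl36 (0.98 each) and Mrpl33 (0.97). Of these, Mrpl11, a protein of the stalk base, had a log2 fold change of -0.23 (SE 0.09) and Mrpl44, a human mitochondrial disease gene, one of -0.16 (SE 0.07); neither passed the test (edgeR adjusted p = 0.0744 and 0.096). It was lowest for Mrpl3 (-0.49), Mrpl47 (0.20), Mrps25 (0.27) and Mrps5 (0.30). Mrpl3 lies near the peptidyl transferase centre and was level over the libraries: it had 36.8, 37.6, 35.8, 36.7 and 37.3 CPM in 1C-MIM libraries 1 to 5 and 34.2, 36.7, 36.2, 36.0 and 36.0 CPM in Control libraries 1 to 5. Mrps5 was also level, with 21.4 to 25.3 CPM in 1C-MIM and 22.5 to 23.9 CPM in Control (log2 fold change -0.01, SE 0.06). Mrpl47 and Mrps25 had log2 fold changes of 0.03 (SE 0.09) and 0.00 (SE 0.06). None of these 4 members passed the test.

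Transcripts of the family are short. Their median length was 1053 bases (407 to 6712), against 2817 bases over all tested genes. Over all 13880 genes the log2 fold change climbed with transcript length (Spearman's rho = 0.44, a description across genes), and within the family it did so too (rho = 0.41 over 77 genes, which share libraries and differ in base composition; length and GC content had rho = -0.43). Fold change and mean CPM were not ordered alike within the family (rho = 0.03). The slope of each library's log2 deviation on log2 length over all genes was -0.026, 0.121, 0.064, 0.085 and 0.007 in 1C-MIM libraries 1 to 5 and -0.014, -0.013, -0.030, -0.049 and -0.145 in Control libraries 1 to 5. Short transcripts were thus relatively low in 1C-MIM 2, 3 and 4 and relatively high in Control 5, the libraries in which the family was lowest and highest. The source of this trend with length was not tested, and the values with the trend removed are given below beside those without.

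**Figure D4:**
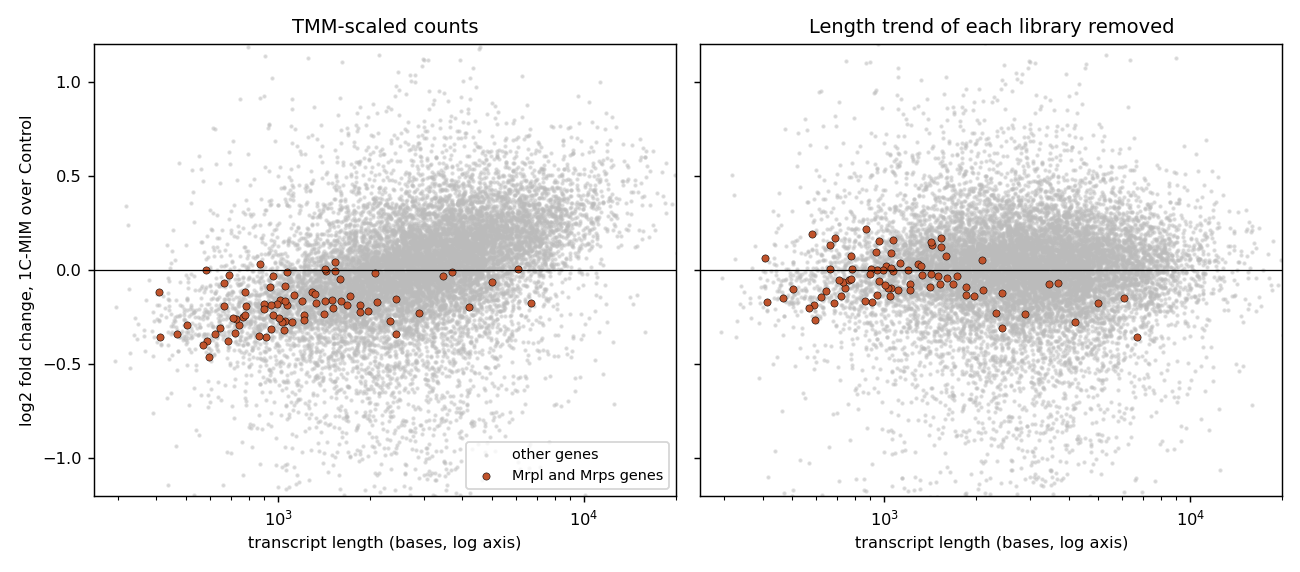
Log2 fold change (1C-MIM over Control) against transcript length in bases (log axis) for the 77 members (orange) and the other tested genes (grey), from scaled counts on the left and with the length trend removed on the right; genes beyond the axis limits are not drawn. The grey cloud climbs with length on the left (rho = 0.44) and lies level on the right (rho = 0.01).

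Among the shortest 10% of all genes (28 to 1100 bases), 28.5% were lower in 1C-MIM, and there 17 of 42 members (40.5%) were lower. In the next 10% (1100 to 1566 bases), 21.3% of all genes and 4 of 16 members (25%) were lower. The median log2 fold changes were -0.24 for the members and -0.21 for all genes in the shortest class, and -0.16 and -0.14 in the next. Together these classes held 58 members and 21 of the 23 lower ones; the other 2 are Mrps27 and Mrpl41. Read against genes of their own length, the members' share of lower genes in these 2 classes was thus nearer to the background than it was against all genes. The longer classes hold 1 to 6 members each, and in each the members' median lay below that of all genes. It was -0.17 against -0.09 at 1566 to 1958 bases (6 members) and -0.19 against -0.05 at 1959 to 2381 bases (4 members). At 6131 bases or more it was -0.18 against 0.24 (1 member).

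**Figure D5:**
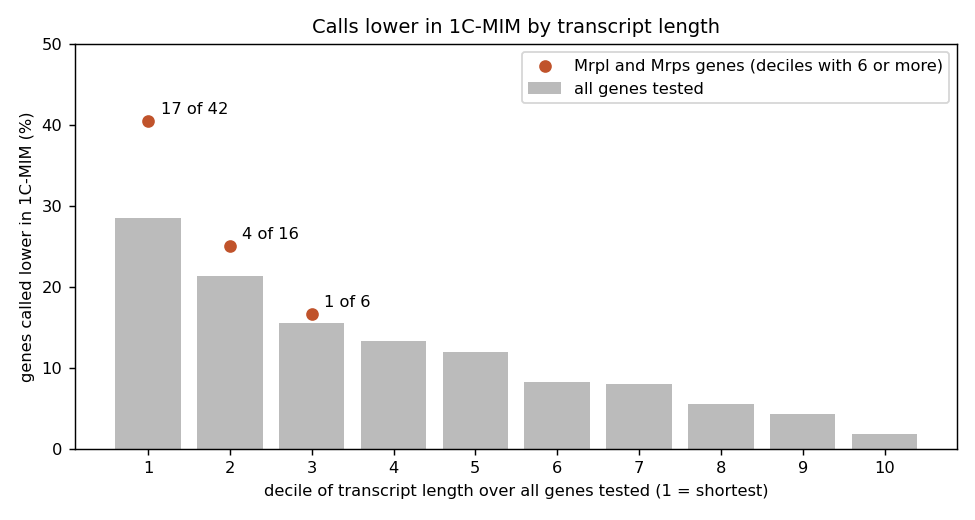
Percent of genes lower in 1C-MIM (edgeR adjusted p under 0.05) by decile of transcript length, for the family and for all tested genes. Shares fall with length, with 40.5% of members and 28.5% of all genes lower in the shortest decile; members are drawn only for deciles that hold at least 6 of them.

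When each library's smooth trend with transcript length was removed in the fit, 8 members (10.4%) were lower, where 9.31% of all genes were, and 3 (3.9%) were higher, where 6.95% of all genes were. The family's median log2 fold change was then -0.06, with 51 of 77 members below 0. The lower members were Mrpl14, Mrpl41, Mrpl48, Mrpl54, Mrps12, Mrps16, Mrps18a and Mrpl15, of which 7 are also lower without the removal. Mrpl14 had a log2 fold change of -0.26 (SE 0.06, adjusted p = 0.0063 in edgeR) and Mrpl41 one of -0.31 (SE 0.06, adjusted p = 0.00591 in edgeR). Only these 2 stayed lower when each library was also left out in turn. Mrpl48, Mrps16 and Mrps18a fell by 0.17, 0.20 and 0.16 in this fit (edgeR adjusted p = 0.0495, 0.0179 and 0.0221). The higher members were Mrpl18, whose bacterial counterpart binds 5S rRNA, Mrpl3 and Mrpl30. Mrpl18 had 74.9 to 89.2 CPM in 1C-MIM and 77.5 to 87.2 CPM in Control, overlapping ranges, with a log2 fold change of -0.03 before and 0.15 after the removal (SE 0.04, adjusted p = 0.0195 in edgeR). It was the only one that stayed higher when each library was also left out. Mrpl30 had a log2 fold change of -0.03 before and 0.17 after (SE 0.05, adjusted p = 0.0365 in edgeR).

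The shortest members did not all fall. Mrps21 (407 bases) had 75.8, 51.9, 61.0, 56.6 and 63.0 CPM in 1C-MIM libraries 1 to 5 and 63.8, 62.7, 60.7, 64.2 and 83.2 CPM in Control libraries 1 to 5, with a log2 fold change of -0.12 (SE 0.11, adjusted p = 0.433 in edgeR). Its groups overlapped widely. Mrpl33 (466 bases) had a log2 fold change of -0.34 but also a wide error and did not pass (SE 0.13, adjusted p = 0.0847 in edgeR). Mrpl52 (412 bases) and Mrps18c (502 bases) were lower, with edgeR adjusted p = 0.0236 and 0.0431, and neither was after the removal of the length trend (edgeR adjusted p = 0.0614 and 0.373). The longest members, Mrpl15, Mrpl19, Mrps25 and Mrpl17, of 4201 to 6712 bases, did not pass the test, with log2 fold changes of -0.20, -0.06, 0.00 and -0.18. After the removal Mrpl15 was lower (log2 fold change -0.28, SE 0.08, adjusted p = 0.0333 in edgeR). Mrpl17 had a log2 fold change of -0.36 (adjusted p = 0.0512 in edgeR).

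Per kilobase of transcript, levels spanned 4.13 (Mrpl19) to 262 (Mrpl42) CPM, with a median of 27.1. Mrpl42 was followed by Mrps21 (158), Mrpl30 (129) and Mrpl33 (127). Mrpl42 had 201, 144, 166, 169 and 171 CPM in 1C-MIM libraries 1 to 5 and 177, 169, 159, 180 and 207 CPM in Control libraries 1 to 5. Its groups overlapped and it did not pass the test (log2 fold change -0.07, SE 0.09, adjusted p = 0.609 in edgeR). None of these 4 members, the highest per kilobase, was lower. Mrpl12 came next with 120 CPM per kilobase and was lower (log2 fold change -0.31, adjusted p = 0.0158 in edgeR).

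Mitoribosomal proteins with other symbols gave a like picture. Of 6 genes, 3 were lower: Chchd1 of the small subunit (42.8 ± 5.70 CPM in 1C-MIM, 57.1 ± 7.33 CPM in Control; log2 fold change -0.42, SE 0.10, adjusted p = 0.0128 in edgeR), Ict1, the peptidyl-tRNA hydrolase built into the large subunit (-0.31, adjusted p = 0.0245 in edgeR), and Aurkaip1 (-0.27, adjusted p = 0.0283 in edgeR). These are the 3 shortest of the 6, with 595, 734 and 1209 bases, and none of them passed after the length trend was removed. Dap3, Ptcd3 and Gadd45gip1 did not pass the test, with log2 fold changes of -0.02, 0.05 and -0.15.

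Genes that act on the mitochondrial ribosome or its RNA have longer transcripts, with list medians of 1891 to 2448 bases. Of 16 translation factors, 1 was higher and 1 lower (6.2%, median log2 fold change -0.06), where 11.8% of all genes were lower. Mss51, a muscle mitochondrial protein named after a yeast translational activator, had 148 ± 10.4 CPM in 1C-MIM and 87.9 ± 9.93 CPM in Control, with ranges of 137 to 164 and 75.3 to 103 CPM. The groups did not overlap, and the log2 fold change was 0.75 (SE 0.08, adjusted p = 0.000106 in edgeR) or 0.85 with the length trend removed. Tsfm, the guanine nucleotide exchange factor of mitochondrial EF-Tu, was lower (-0.31, SE 0.09, adjusted p = 0.0237 in edgeR). With the length trend removed Tsfm did not pass (-0.14, adjusted p = 0.1 in edgeR), and the initiation factor Mtif3 was lower (-0.28, adjusted p = 0.0287 in edgeR). Of 27 assembly factors and rRNA-modifying enzymes measured, 2 were lower (7.4%) and 0 higher (median -0.08, 21 below 0). They were the pseudouridine synthase Rpusd4 (-0.32, SE 0.07, adjusted p = 0.00999 in edgeR) and the rRNA methyltransferase Mrm1 (-0.37, SE 0.10, adjusted p = 0.0178 in edgeR), and both remained lower after the length trend was removed (edgeR adjusted p = 0.039 and 0.0243). After the removal Ybey was lower too (-0.27, adjusted p = 0.0451 in edgeR). Of 15 genes of mitochondrial transcription and RNA processing, 1 was lower, Hsd17b10, a subunit of mitochondrial RNase P (-0.21, SE 0.07, adjusted p = 0.0466 in edgeR). With the length trend removed Hsd17b10 did not pass (-0.03, adjusted p = 0.717 in edgeR), while the mitochondrial transcription factor Tfb2m was higher (0.19, adjusted p = 0.0365 in edgeR). The transcription factor Tfam averaged 48.2 ± 2.56 CPM in 1C-MIM and 48.2 ± 2.74 CPM in Control.

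The family can be set beside other large groups of short transcripts. Of 79 cytosolic ribosomal proteins tested (of 81), 36 were lower and 0 higher (median log2 fold change -0.26, median length 703 bases), and 12 were lower and 1 higher after the length trend was removed (median -0.08). Of 78 nuclear-encoded respiratory chain subunits, 24 were lower and 0 higher (median -0.21, median length 664 bases), and after the removal 7 were lower (median -0.03). The mitochondrial content genes Cs, Vdac1 and Tomm20 did not pass the test, with log2 fold changes of 0.08, 0.13 and -0.08. With the length trend removed Vdac1 was higher (0.23, adjusted p = 0.00299 in edgeR), and Cs and Tomm20, at 0.08 and -0.19, again did not pass.

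Promoter sequence was examined as a description of the family. Why the members moved together was not tested. RefSeq promoter windows (build GRCm38.p6, 250 bases before to 50 after the start) were found for 68 members, 20 of them among the 23 lower ones. Letters were searched on both strands, and matches of different motifs were counted separately even where they share bases. The GABP (ETS) core CCGGAAG was present in 24 of 68 members (35.3%), against 9.12% of 27025 promoters and 17.0% of the 10341 that belong to tested genes. The NRF1 site (GCGC, any base, then TGCGC) was present in 13 (19.1%), against 4.78% of all promoters and 9.9% of those of tested genes, and the YY1 letters AAGATGGC in 12 (17.6%), against 2.88 and 4.5%. The GC box GGGGCGGGG in 13 (19.1%) was near the share in tested genes (21.6%), as were the E-box CACGTG in 5 (7.4%, against 10.3%) and the CREB site TGACGTCA in 2 (2.9%, against 3.1%). Among the 20 lower members, 11 held the GABP letters, 2 the NRF1 letters and 4 the YY1 letters, and among the other 48 members, 13, 11 and 8 did. Factor binding was not measured here, and a match is only a description of the letters.

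Bases upstream of the start are shown for 4 lower members to give the range of what these windows hold. They are on the minus strand of GRCm38.p6 and are written 5′ to 3′, with motif matches in capitals. The first pair held none of the motifs: Mrpl48 at chr7:100608302-100608551 and Mrpl41 at chr2:24975099-24975348. Mrps22 at chr9:98601680-98601929 held a GC box and a GABP match. Mrpl43 at chr19:45006443-45006557, a stretch of 115 bases where each of the others has 250, held 2 GABP matches.
Mrpl48: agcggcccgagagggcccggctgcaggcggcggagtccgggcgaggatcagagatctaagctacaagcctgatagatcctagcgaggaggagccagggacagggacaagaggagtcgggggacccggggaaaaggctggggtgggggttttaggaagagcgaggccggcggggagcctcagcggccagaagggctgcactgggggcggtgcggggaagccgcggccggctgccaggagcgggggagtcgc
Mrpl41: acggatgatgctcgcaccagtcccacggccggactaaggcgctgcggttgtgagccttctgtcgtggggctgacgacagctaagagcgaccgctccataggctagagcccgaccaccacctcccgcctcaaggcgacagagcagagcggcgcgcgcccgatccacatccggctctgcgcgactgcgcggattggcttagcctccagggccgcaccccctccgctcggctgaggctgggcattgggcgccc
Mrps22: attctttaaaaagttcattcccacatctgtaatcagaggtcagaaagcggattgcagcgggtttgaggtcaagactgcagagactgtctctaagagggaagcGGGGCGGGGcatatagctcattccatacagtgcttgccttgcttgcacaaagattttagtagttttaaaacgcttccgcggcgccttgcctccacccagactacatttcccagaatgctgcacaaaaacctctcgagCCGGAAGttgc
Mrpl43: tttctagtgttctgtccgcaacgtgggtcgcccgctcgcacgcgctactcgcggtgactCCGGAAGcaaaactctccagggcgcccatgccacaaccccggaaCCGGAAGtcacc
Mrpl48 and Mrpl41, with no match, had log2 fold changes of -0.36 and -0.34, and Mrps22 and Mrpl43 ones of -0.27 and -0.24. These genes do not stand for the other lower members. Mrpl14, with NRF1 and GC box matches in its window, had -0.46, and Mrps16, with GABP matches, had -0.40. The relation of matches to fold change was not tested.

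Of the 77 members, 23 overlap exons of another protein-coding gene in the GENCODE annotation, and 6 of these were lower; of the other 54, 17 were lower. No member had counts within 1% of those of another symbol.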

How the data were processed

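Each animal has a table of 33984 RefSeq identifiers with count, FPKM and TPM columns (per the file headers). The deposited count values are whole numbers that the authors did not normalize. The authors' FPKM, per kilobase and per library, served to recover transcript lengths. The authors' TPM, scaled for length within a library, entered only sums and an alternative. The submitters' processing notes name bedtools 2.30.0, DESeq2 1.28.0, featureCounts, Picard 2.27.4, Salmon 1.5.2, SAMtools 1.15.1, STAR, StringTie 2.2.1, Subread 2.0.1, Trim Galore 0.6.7 and build GRCm39, with no role or order. The sources used here give no strandedness and no counting filters. A read can count for several isoforms, so 1 identifier per symbol was kept; 8 members have several, and in 6 the second reaches at least 80% of the largest.

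Counts were filtered with filterByExpr, scaled with TMM and tested with edgeR 4.0.16 (R 4.3.3, quasi-likelihood, robust) on 13880 genes, with library totals of 28521254 to 31771296 counts. Calls are Benjamini-Hochberg adjusted p under 0.05 over all genes. CPM are TMM-scaled, with a prior count of 2 for log2 values. The length trend of each library was a natural spline of log2 length with 3 inner knots, fitted over all tested genes and used as an offset. The procedure was run on simulated data with a length slope drawn at random for each library, without regard to group. This simulation therefore cannot show how the removal treats a group difference shared by short transcripts. GENCODE on GRCm38 served only for GC content and neighbouring exons, and no coordinates were converted.

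Genes were named by a rule: the 10 members with the smallest p past the threshold, the 4 shortest, the 4 longest, the 4 highest per kilobase, the 4 most and the 4 least correlated with the family, members called against its main direction, and the 2 smallest p of each related list. The rest of the lower members and the higher ones after length removal were named as complete sets; Tfam, Mrpl10, Mrps30, Mrpl12, Mtif3 and the mitochondrial content genes were named after their values were seen. The members and lists were chosen with earlier results of these data known. Alternatives covered scaling, filters, DESeq2 1.42.0, limma-voom (limma 3.58.1), blocks, length and GC trends, summed identifiers and left-out libraries; removing the length trend together with each library left out, and the deposited TPM with limma on log2(TPM + 0.1), were chosen after seeing the data.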

Additional observations from a re-analysis of the deposited data

Results flagged for a closer look

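In 6 of 70 groups of 5 libraries examined (the 34 named genes and the family's summed CPM, each in both groups), the highest or lowest library stood apart from the other 4 by Dixon's criterion for 5 values (gap over range above 0.71). Chance gives about 1 in 20. Mrpl14 was 44.1 CPM in 1C-MIM 1, and 33.7 to 36.4 CPM in the other 1C-MIM libraries. Control 5 was high for Mrps12 (41.8 CPM, others 31.8 to 33.6), Mrps21 (83.2 CPM, others 60.7 to 64.2) and Tsfm (22.2 CPM, others 18.7 to 19.6). Control 1 was low for Mrpl3 (34.2 CPM, others 36.0 to 36.7) and Mrm1 (8.90 CPM, others 10.5 to 11.1). Mrpl14 and Mrps12 were lower in 1C-MIM in each fit without 1 library.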

How the results depend on the processing

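The count of 23 lower members became 8 with the length trend removed, 10 with length and GC content removed, 55 with library totals as the only scaling (which moved the median of all genes to -0.07), 39 with the deposited TPM and limma, 11 without Control 1 and Control 5, and 45 at an adjusted p under 0.1. With 1 library left out it ranged over 12 to 46, and with the length trend removed as well over 2 to 11. The count of 0 higher members became 3 with the length trend removed and 3 with GC content removed too. It stayed 0 in the fits with 1 library left out and was 1 to 3 when the trend was removed as well. The genes behind these counts changed when GC content was removed as well as length. Mrpl3 (log2 fold change 0.13) then no longer passed as higher. Mrps12 and Mrps18a (-0.12 each) no longer passed as lower. Mrpl19 (-0.19) passed as lower there, which it did not with length alone removed. The median log2 fold change of -0.19 became -0.06 with either removal and ranged over -0.23 to -0.15 with 1 library left out, or -0.09 to -0.04 with the trend removed too. The rank correlation of fold change with length of 0.41 became -0.10 with length removed and -0.20 with GC content too; with 1 library left out it was 0.35 to 0.47, or -0.13 to -0.04 with the trend removed. The length removals take out this relation by construction; for the other changes the cause was not tested.

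Whether the shared replicate numbers pair the animals was not settled by the check used. In it 3 of 5 same-numbered pairs had correlated deviations over 0.1, and 2 of 5 1C-MIM libraries correlated best with their own number. With the replicate block 40 members were lower, all 23 among them, and 0 higher (all genes: 14.2% lower, 13.9% higher), and the median was -0.19. With the replicate block and the length trend removed 12 were lower and 3 higher (all genes: 10.3% lower, 9.2% higher), the median was -0.06 and the rank correlation -0.10.

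Of the named genes, Mrpl30 (-0.03) changed sign and passed the test with log2 fold changes of 0.17 (length removed), 0.15 (length and GC) and 0.17 (replicate block with length removed). With 1 library left out it was -0.09 to 0.03, and 0.15 to 0.19 with length removed too. Mrpl42 (-0.07) was -0.13 to 0.00 with 1 library left out and 0.10 to 0.15 with length removed too, and passed at 0.15 without 1C-MIM 2. With the length trend removed Mrpl42 (0.13), Mrps21 (0.06), Mrps5 (0.13) and Mrpl36 (0.01) also changed sign, without passing. Of 1258 values of 34 named genes under the alternatives, 949 kept direction and call, 185 lost the call and 53 gained it; 71 changed sign, 63 of them not past the test before or after. With the length trend removed 9 of 19 named genes past the threshold lost it. The lowest count of a member in a library was 180.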
